A study of Homo sapiens with 6 samples.

Results

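The glutathione peroxidases described here are 6 human genes, taken by name from the 65988 gene identifiers that were counted. Of these, 4 encode enzymes with selenocysteine in the catalytic site (GPX1, GPX2, GPX3 and GPX4) and 2 encode enzymes with cysteine in its place (GPX7 and GPX8). Poly(A) RNA was sequenced from U87MG cells, an established human glioblastoma line with the genotype WT, after vehicle alone in 3 control libraries and after RSL3 at 2 µM in the 3 others. The labels give no time, and the study's text gives a day. RSL3 is a small molecule inhibitor of the GPX4 protein, and the study used it to set off ferroptosis, a cell death driven by lipid peroxidation, and to look for genes whose expression changed with it. All libraries come from this 1 cell line, and no engineered change of a GPX gene is given for them. The labels do not say whether the replicates were separate cultures, and the study's methods describe its results in general as coming from independent experiments or samples. The p-values measure the spread between these libraries.

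Glutathione peroxidases reduce hydrogen peroxide and organic hydroperoxides to water and alcohols, and most of them draw the electrons from glutathione. Selenocysteine is read from a UGA codon that would otherwise end translation, with the help of a hairpin in the untranslated end of the mRNA called the SECIS element, and when selenium is short the mRNAs of some selenoproteins, GPX1 among them, are known to be destroyed while that of GPX4 is largely spared. GPX4 is the member able to reduce hydroperoxides of phospholipids within membranes, which places it at the centre of the defence against ferroptosis. GPX7 and GPX8 lie in the endoplasmic reticulum and pass oxidizing equivalents from peroxide to the protein folding machinery.

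The codon that separates the groups is shown first. Each line gives 27 bases of the coding strand of the GENCODE v44 canonical transcript (GRCh38), 5′ to 3′, with 12 bases on each side of the catalytic codon, which is in capitals.
GPX1: gtggcgtccctcTGAggcaccacggtc
GPX2: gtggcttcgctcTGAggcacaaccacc
GPX3: gtggccagctacTGAggcctgacgggc
GPX4: gtggcctcccagTGAggcaagaccgaa
GPX7: gtggccagcgagTGCggcttcacagac
GPX8: gtggccagtgacTGCcaactcacagac
The codon was TGA in the 4 selenocysteine members and TGC, a cysteine codon, in GPX7 and GPX8. Over all 6 members 9 of the 27 positions held the same base, against 13 within the 4 selenocysteine members and 21 between GPX7 and GPX8. In GPX1 the codon is number 49 of 203 (chr3:49358132-49358134, minus strand, exon 1 of 2), and in GPX4 it is number 73 of 197 (chr19:1105403-1105405, plus strand, exon 3 of 7). The codon of GPX8 is number 79 of 209 (chr5:55161024-55161026, plus strand, exon 2 of 3). All lie in coding exons, and in GPX1 and GPX4 alike 105 bases of the exon followed the codon before the next exon junction.

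Total counts per library ranged from 27813462 to 43306335, and after TMM scaling, which uses the bulk of genes to make library sizes comparable, the factors lay between 0.995 and 1.01. Normalized counts put every library on the average library size. Each of 16105 genes that passed the filter on low counts was tested by the quasi-likelihood F test of edgeR, and was called differentially expressed at a Benjamini-Hochberg adjusted p under 0.05. The median log2 fold change of all genes tested, RSL3 against control, was -0.00. Among markers of the line, 6 of 6 mesenchymal glioblastoma genes passed the filter, and 4 of them were called lower and 2 higher. Their summed normalized count was 180133 to 185541 in control and 155288 to 162933 in RSL3 libraries. For glial genes 4 of 9 passed, OLIG1 and AQP4 were at 0 in every library, and the sum was 567 to 623 in control and 623 to 730 in RSL3 libraries. The summed level was 1203 to 1330 in control and 1326 to 1374 in RSL3 libraries for 6 neuronal markers, 97.1 to 123 and 76.9 to 120 for 5 of microglia and leukocytes (AIF1 at 0), 66.8 to 97.1 and 29.1 to 50.9 for 3 of endothelium, and 86.1 to 130 and 101 to 125 for 4 of epithelium. Single markers could go against such a sum: among the neuronal genes, named here after their values were seen, SYT1 was higher (log2 fold change 0.24, edgeR adjusted p = 0.00214) and SNAP25 lower (log2 fold change -1.04, edgeR adjusted p = 4.84e-05). The part of these shifts in the results was not tested. In bulk RNA, fewer cells that express a gene and less of its RNA per cell cannot be told apart.

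The mRNAs of GPX1, GPX4 and GPX8 were lower in RSL3-treated cells, and no member was upregulated. GPX1 fell most, to 0.624 of its control level, GPX4 to 0.748 and GPX8 to 0.787. GPX3 was weakly expressed and was not called differentially expressed, and GPX2 and GPX7 were at or near the limit of detection. Of the 6 members 4 passed the filter on low counts, and of these 3 were downregulated and 1 did not pass the test. For comparison, 25.6% of all genes tested were differentially expressed, 12.7% of them downregulated and 12.9% upregulated as shares of the genes tested. The median log2 fold change of the 4 tested members was -0.38.

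**Figure D1:**
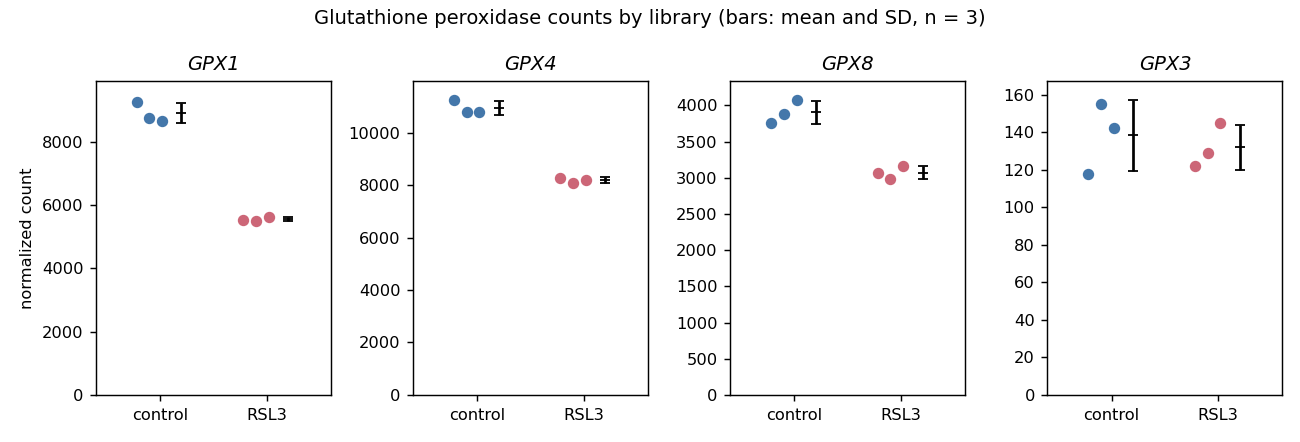
Normalized counts (vertical axes from 0, a scale for each gene) of the 4 members that passed the filter, with 1 point per library and the mean and SD of 3 libraries beside them. The RSL3 libraries lie below every control library for GPX1, GPX4 and GPX8, and the groups overlap for GPX3.

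GPX4, the target of RSL3 and the phospholipid hydroperoxidase of the family, is encoded by ENSG00000167468 at chr19:1103982-1106791 on the plus strand of GRCh38. Its raw counts were 14303, 8763 and 11676 in control replicates 1, 2 and 3 and 7202, 7774 and 8225 in RSL3 replicates 1, 2 and 3. After normalization the control libraries held 11243, 10782 and 10795 and the RSL3 libraries 8282, 8076 and 8215. Every RSL3 library was below every control library, which was the case for 19.3% of all genes tested, and the groups did not overlap in either direction for 38.6%. The means were 10940 ± 262 normalized counts in control and 8191 ± 105 in RSL3-treated cells (SD, n = 3 each). GPX4 was thus downregulated with a log2 fold change of -0.42 (SE 0.03, 95% interval -0.48 to -0.36, edgeR adjusted p = 1.68e-09), a decrease of 25.2%. Of all genes tested, 8.03% had a log2 fold change as low as that of GPX4 or lower. The gene gives rise to cytosolic, mitochondrial and nuclear forms of the protein from different starts, and counts summed over the gene do not separate them.

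GPX1, the abundant peroxidase of cytosol and mitochondria that reduces hydrogen peroxide, is encoded by ENSG00000233276 at chr3:49357174-49358605 on the minus strand. The control libraries held 11778, 7124 and 9378 raw counts and the RSL3 libraries 4800, 5295 and 5639. Normalized, these were 9258, 8765 and 8670 in control and 5520, 5501 and 5632 in RSL3-treated cells. The groups were wide apart, with a gap between the lowest control and the highest RSL3 library far above the range within either group. Mean GPX1 decreased by 37.6%, with 8898 ± 315 normalized counts in control and 5551 ± 70.7 in RSL3-treated cells (SD, n = 3 each; log2 fold change -0.68, SE 0.03, 95% interval -0.75 to -0.61, edgeR adjusted p = 6.47e-12). A log2 fold change this low or lower was found in 3.07% of the genes tested.

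Sequences close to GPX1 could share its reads. In GENCODE v44, 572 of its 1432 exon bases (39.9%) also belong to the gene ENSG00000290318 on the same strand, but this identifier is not among those the authors counted. GPX1P1, a processed pseudogene with 97.2% identity to GPX1, shares 137 of the 825 windows of 75 bases along the GPX1 transcript exactly. Its counts were 140, 90 and 93 in control and 65, 51 and 58 in RSL3 libraries, all RSL3 libraries being lower (log2 fold change -0.73, SE 0.20, edgeR adjusted p = 0.00849). GPX1 had 78.7 to 100.3 reads for each GPX1P1 read in control and 73.3 to 103 in RSL3 libraries, ranges that overlap. How many pseudogene reads came from GPX1 was not tested. A second pseudogene, GPX1P2, with 93.3% identity and no such window in common, had 3, 2 and 0 counts in control and 1, 0 and 0 in RSL3 libraries. The exons of the other 5 members share no base with those of another gene in GENCODE v44.

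GPX3, the secreted peroxidase known from blood plasma, is encoded by ENSG00000211445 at chr5:151020591-151028988 on the plus strand. It had 150, 126 and 154 raw counts in control and 106, 124 and 145 in RSL3 libraries. Normalized counts were 118, 155 and 142 against 122, 129 and 145, and the groups overlapped. The means of 138 ± 18.9 and 132 ± 11.8 (SD, n = 3 each) differed by less than the spread between libraries (log2 fold change -0.06, SE 0.15, 95% interval -0.37 to 0.26, edgeR adjusted p = 0.834). At this depth the interval still holds the log2 fold change of GPX8, but those of GPX4 and GPX1 lie below it. Without control replicate 2, the highest library for this gene, the log2 fold change was 0.03.

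GPX2, the peroxidase best known from the gut epithelium, is encoded by ENSG00000176153 at chr14:64939152-64942746 on the minus strand. It had 2, 2 and 5 counts in control and 2, 2 and 4 in RSL3 libraries. Summed over each group and put on the CPM scale, counts relative to the total of the libraries, this is 0.0835 CPM in control (exact 95% Poisson interval 0.0382 to 0.159) and 0.0825 in RSL3-treated cells (0.0356 to 0.163), intervals that cover counting error only. The gene did not pass the filter, and at this depth no difference was detectable.

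GPX8, a membrane protein of the endoplasmic reticulum and the only cysteine member with enough counts to test, is encoded by ENSG00000164294 at chr5:55160167-55167297 on the plus strand. Raw counts were 4781, 3160 and 4409 in control and 2670, 2870 and 3172 in RSL3 libraries. The normalized counts of 3758, 3888 and 4076 in control were all above the 3070, 2982 and 3168 in RSL3-treated cells. GPX8 was downregulated from 3907 ± 160 to 3073 ± 93.2 (SD, n = 3 each), by 21.3% (log2 fold change -0.35, SE 0.04, 95% interval -0.43 to -0.27, edgeR adjusted p = 6.4e-07). Of the genes tested 10.6% had a log2 fold change at or below that value.

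GPX7, its soluble relative in the same compartment, is encoded by ENSG00000116157 at chr1:52602371-52609051 on the plus strand. A single read was counted, in control replicate 3, and the other 5 libraries were at 0. A count of 0 allows up to 3 counts, or 0.0693 to 0.108 CPM across the libraries. The cysteine group is therefore represented by GPX8 alone. The family's other genes, GPX5 and GPX6, were at 0 in all 6 libraries.

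**Figure D2:**
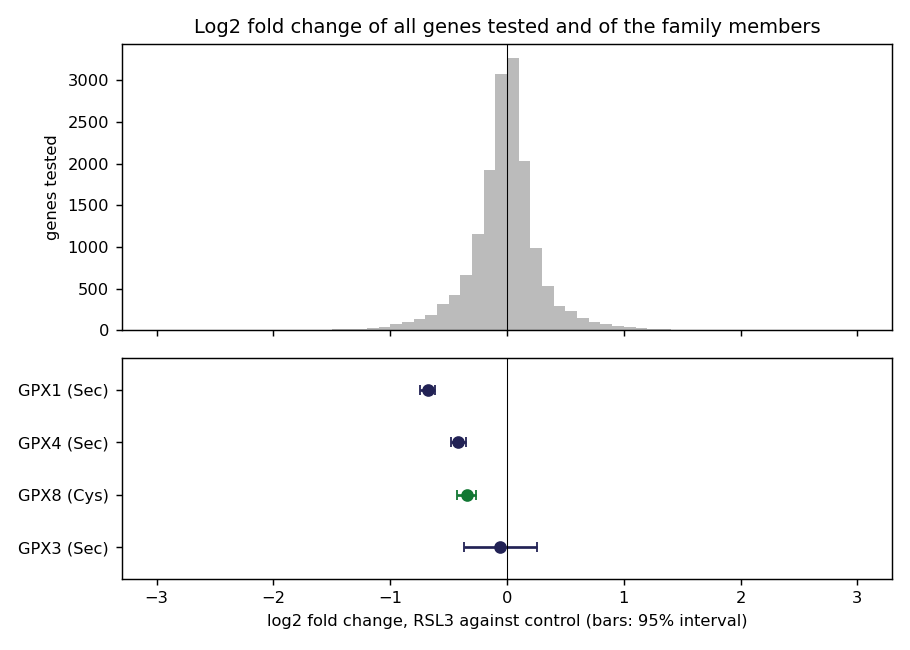
Upper panel, the number of genes tested (vertical axis) by log2 fold change in steps of 0.1, the 1 gene beyond 3 being drawn in the outermost step; lower panel, the log2 fold change of each tested member with its 95% interval, Sec marking selenocysteine and Cys cysteine. GPX1 at -0.68, GPX4 at -0.42 and GPX8 at -0.35 lie left of 0 with their intervals, and the interval of GPX3 spans 0.

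Set by catalytic residue, 3 of the 4 selenocysteine members were tested and 2 of them were downregulated, with a median log2 fold change of -0.42. Of the 2 cysteine members 1 was tested, and it was downregulated. The fold change of GPX8 lay between those of the selenocysteine members GPX4 and GPX3. To compare members without any scaling of libraries, the log2 ratio of each selenocysteine member's counts to those of GPX8 was taken within each library.

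The GPX1 to GPX8 ratio was 1.301, 1.17 and 1.09 on the log2 scale in control and 0.85, 0.88 and 0.83 in RSL3 libraries. All RSL3 libraries were below all control libraries, a mean difference of -0.33 (exact two-sided permutation p = 0.1, the smallest that 3 against 3 libraries allow). The GPX4 to GPX8 ratio was 1.58, 1.47 and 1.40 in control and 1.43, 1.44 and 1.37 in RSL3 libraries, which overlapped, with a mean difference of -0.07 (exact permutation p = 0.3). This difference rested on single libraries, since it was -0.024 without control replicate 1 (exact permutation p = 0.6) and -0.11 without control replicate 3, where the groups no longer overlapped (exact permutation p = 0.1, the smallest possible). For GPX3 to GPX8 the difference in means was 0.28 in the other direction, from -4.82 ± 0.17 to -4.54 ± 0.10 (SD, n = 3 each, exact permutation p = 0.2), again with overlap. Adjusted over the 3 pairs by Benjamini-Hochberg, each p was 0.3, and this design cannot pass the threshold of 0.05. Such differences follow the log2 fold changes of the members, as those of GPX1 (-0.68) and GPX8 (-0.35). How often the ratios of other gene pairs separate the groups was not tested. Ratios with GPX2 or GPX7 were not formed because of their low counts.

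Within the selenocysteine group, GPX1 was lower relative to GPX4 in every RSL3 library than in any control library. For each GPX4 read there were 0.823, 0.813 and 0.803 GPX1 reads in control and 0.667, 0.681 and 0.686 in RSL3 libraries. The groups did not overlap, and the mean log2 ratio differed by -0.26. This pair lies outside the ratios to GPX8 set out above, and its values are given as a description, with no test. The difference restates the unlike log2 fold changes of GPX1 (-0.68) and GPX4 (-0.42). How often the ratios of other gene pairs separate the groups in this way was not tested.

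**Figure D3:**
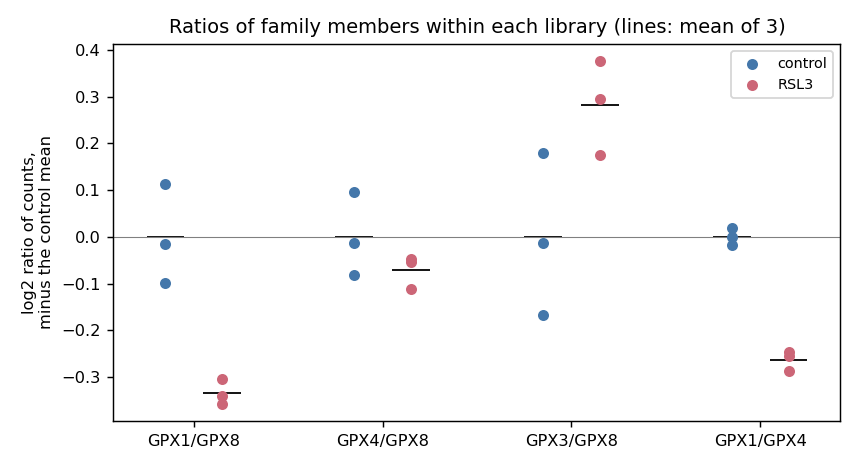
Log2 ratio of the counts of 2 members within each library, minus the mean of the control libraries (vertical axis), for 4 pairs, with 1 point per library and a line at each mean of 3. The GPX1 to GPX8 and GPX1 to GPX4 ratios are lower in all RSL3 libraries, by 0.33 and 0.26 in the mean, and the other pairs overlap.

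Levels of different genes can be set beside each other only per length. On the TPM scale, which divides counts by the exon length of each gene and then by the library's sum of these values, GPX1 and GPX4 were the most abundant members in control cells. GPX1 had 806, 764 and 779 TPM in control and 488, 490.1 and 502 in RSL3 libraries. For GPX4 the values were 762, 731 and 755 in control and 569.6, 560.02 and 570.05 in RSL3 libraries. The means were 783 ± 21.3 TPM for GPX1 and 749.5 ± 16.0 TPM for GPX4 in control, and 493 ± 7.73 and 567 ± 5.66 TPM in RSL3-treated cells (SD, n = 3 each), so that the order of the pair was the opposite after RSL3. Between the control groups this order depended on the length used: with the longest annotated transcript of each gene, GPX1 was at 696 and GPX4 at 831 TPM. GPX8 followed at 122 ± 7.13 TPM in control and 96.7 ± 3.03 in RSL3-treated cells, and GPX3 at 5.81 ± 0.813 and 5.59 ± 0.52. By control TPM, GPX1 ranked 146 and GPX4 158 among the 31306 genes with a level, against 1546 for GPX8, 10522 for GPX3, 19317 for GPX2 and 26926 for GPX7.

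The summed level of the 6 members was 1689, 1622 and 1671 TPM in control and 1159, 1150 and 1179 TPM in RSL3 libraries, a mean of 1661 ± 34.5 against 1162 ± 14.8 (SD, n = 3 each). Shares in this sum depend on the length used, here the exon length. With the longest annotated transcript, GPX4 was above GPX1 in control (831 and 696 TPM), and shares were not computed with that length. The share of GPX1 in this sum was 47.2% ± 0.546 in control and 42.4% ± 0.30 in RSL3-treated cells. The share of GPX4 was 45.1% ± 0.0561 and 48.7% ± 0.398, and that of GPX8 7.34% ± 0.455 and 8.32% ± 0.154. GPX3 made up 0.351% ± 0.0551 and 0.480% ± 0.0397 (SD, n = 3 each for all shares). The shares of the groups did not overlap for any of these 4 members, being lower for GPX1 and higher for the others in RSL3 libraries. As parts of 1 sum they are not independent, and this measure has no counterpart over all genes. The higher shares are parts of a lower sum and not higher levels. In TPM, GPX4 and GPX8 were lower in RSL3-treated cells, and the groups overlapped for GPX3 (means 5.81 in control and 5.59 in RSL3-treated cells).

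**Figure D4:**
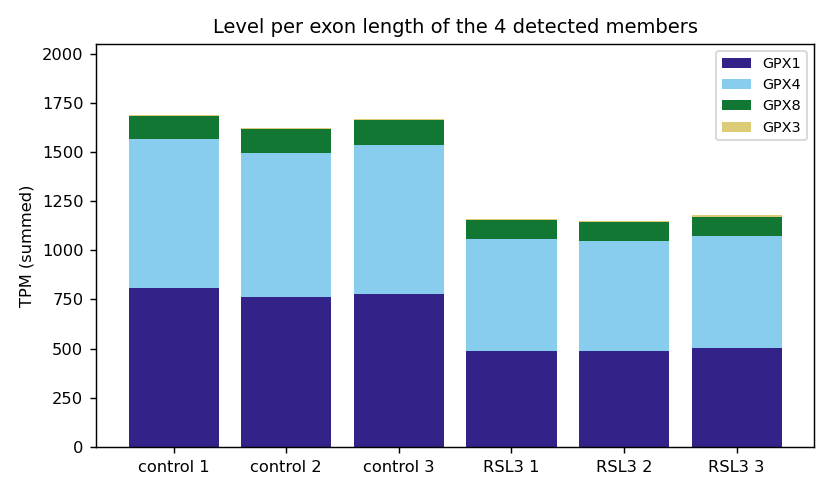
Level in TPM (vertical axis from 0) of GPX1, GPX4, GPX8 and GPX3, stacked for each of the 6 libraries. The bars reach 1622 to 1689 TPM in control and 1150 to 1179 TPM in RSL3 libraries, and GPX3 is barely visible at the top.

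Spread between replicates differed with level. The coefficient of variation of normalized counts was 2.40% in control and 1.28% in RSL3 libraries for GPX4, 3.55% and 1.27% for GPX1, 4.09% and 3.03% for GPX8, and 13.6% and 8.91% for GPX3. The least expressed of the tested members was thus also the most variable. The counts of GPX3 were low, and the part of counting error in its spread was not tested.

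Promoters of the 3 downregulated members are shown because these members moved together. Each line gives the 250 bases before the gene's start in RefSeq (GRCh38.p14), 5′ to 3′ on the strand of the gene. Capitals mark matches on either strand to 4 motifs that were searched. The first was the box named after GC, with the letters GGGCGG, and the next the box named after its own letters CCAAT. The others were the core of the antioxidant response element, with the letters TGACNNNGC, and the E-box with the letters CACGTG. In the 3 windows no match overlapped another. The windows are chr3:49358354-49358603 (minus strand) for GPX1, chr19:1103744-1103993 (plus strand) for GPX4 and chr5:55159921-55160170 (plus strand) for GPX8. The RefSeq start of GPX1 lies inside the gene as GENCODE v44 bounds it, so the whole GPX1 window is within the gene model given above, and the last few bases of the GPX4 and GPX8 windows are too.
GPX1: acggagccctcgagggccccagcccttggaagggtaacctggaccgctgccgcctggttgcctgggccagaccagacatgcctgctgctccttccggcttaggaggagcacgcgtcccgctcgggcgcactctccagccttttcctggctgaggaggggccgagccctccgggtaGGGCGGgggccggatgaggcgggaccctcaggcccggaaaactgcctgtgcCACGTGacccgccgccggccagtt
GPX4: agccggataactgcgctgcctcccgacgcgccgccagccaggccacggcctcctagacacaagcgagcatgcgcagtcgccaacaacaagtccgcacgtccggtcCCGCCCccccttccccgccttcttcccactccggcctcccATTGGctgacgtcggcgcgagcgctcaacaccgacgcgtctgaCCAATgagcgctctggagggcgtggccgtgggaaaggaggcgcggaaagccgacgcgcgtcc
GPX8: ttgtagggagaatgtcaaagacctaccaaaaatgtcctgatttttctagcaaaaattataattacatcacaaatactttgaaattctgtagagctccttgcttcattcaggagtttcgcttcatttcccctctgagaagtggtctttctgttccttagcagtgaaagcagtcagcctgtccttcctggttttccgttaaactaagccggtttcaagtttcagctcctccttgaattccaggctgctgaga
GPX1 held 1 GC box and 1 CACGTG, GPX4 held 1 GC box and 2 CCAAT boxes, and GPX8 held none of the 4 motifs. The GC content of the windows was 70.8%, 69.6% and 41.2%. Of 35116 promoters of this length, 42.6% held a GC box, 32.0% a CCAAT box, 10.9% the antioxidant response element core and 6.34% CACGTG. No motif was common to the 3 promoters. The antioxidant response element core had 1 match in the family, in the promoter of GPX2. These matches describe letters in the windows and no binding.

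The nearest genes on each side of the members are given for comparison. RHOA, a small GTPase gene that lies 533 bases from GPX1, fell from 19939 ± 164 to 18047 ± 336 normalized counts (SD, n = 3 each; log2 fold change -0.14, edgeR adjusted p = 0.000457). On the other side USP4, a deubiquitinase gene, had a log2 fold change of -0.02 (edgeR adjusted p = 0.749). Beside GPX4, POLR2E, a subunit shared by RNA polymerases, was downregulated by -0.10 on the log2 scale (edgeR adjusted p = 0.0256) and SBNO2 had a log2 fold change of 0.12 (edgeR adjusted p = 0.567). The neighbours of GPX8, GZMA and MIR449A, were at 0 in all libraries, so no change could be measured there. Of the neighbours of GPX3, TNIP1 had a log2 fold change of 0.02 (edgeR adjusted p = 0.782).

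The genes whose pattern over the 6 libraries was most like that of each downregulated member were found by the root mean square difference of centred log2 CPM, among 11463 genes with a mean normalized count of at least 100. For GPX1 they were SELENOH, a nuclear selenoprotein gene (difference 0.0360), the long noncoding RNA PELATON (0.0426) and GSTA4, a glutathione transferase gene (0.0438), against a median of 0.349 over all candidates. For GPX4 they were TMSB4X, which encodes thymosin beta 4 (0.0102), HSPB1, a small heat shock protein gene (0.0187), and DCBLD1 (0.0225), with a median of 0.223. For GPX8 they were MAN1A1, a mannosidase gene (0.0174), PGAP1, an enzyme gene of GPI anchor remodelling (0.0216), and IL21R, a cytokine receptor gene (0.0223), with a median of 0.195. The log2 fold changes of these genes were -0.72, -0.67 and -0.73 for the GPX1 group, -0.42, -0.40 and -0.39 for the GPX4 group and -0.37, -0.32 and -0.34 for the GPX8 group. All points of such a comparison share the same 6 libraries. Genes chosen for the smallest difference over these libraries have fold changes near the member's, and differences below the median, by construction.

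Glutathione is the electron donor of most of the family. A list of 15 genes covered its synthesis, the uptake of its precursor, its recycling with the supply of NADPH, its breakdown and its transport into mitochondria. All 15 were tested, and 9 were upregulated, 2 were downregulated and 4 did not pass the test, with a median log2 fold change of 0.23, against 12.9% upregulated and 12.7% downregulated over all genes tested. GCLM, the modifier subunit of glutamate-cysteine ligase, was at 4267, 4059 and 3942 normalized counts in control and 6663, 6622 and 6300 in RSL3 libraries (log2 fold change 0.67, edgeR adjusted p = 2.89e-11). SLC7A11, the cystine transporter, rose by 0.54 and GSR, the glutathione reductase that restores the reduced donor, by 0.55 on the log2 scale (edgeR adjusted p = 2.39e-10 and 6.46e-10). The downregulated genes were SLC25A39, the mitochondrial glutathione carrier, at -0.11 and GSS, glutathione synthetase, at -0.12 (edgeR adjusted p = 0.0177 and 0.0428), and the libraries of the groups overlapped for GSS. The 9 upregulated genes include CHAC1 (log2 fold change 0.34, edgeR adjusted p = 2.41e-06) and GGT1 (0.23, edgeR adjusted p = 0.00239), which break glutathione down and are named after their values were seen.

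The list for selenocysteine insertion also held genes of selenium uptake, recycling and binding, namely LRP8, LRP2, SCLY and SELENBP1. Of its 18 genes 16 were tested. Among these 3 were upregulated, 1 was downregulated and 12 did not pass the test, with a median log2 fold change of 0.04. Over all genes tested 25.6% were called, and the 4 of 16 here lie near that share. SEPHS2, which makes the selenium donor and is itself a selenoprotein, rose from 16863 ± 642 to 20989 ± 1021 normalized counts (SD, n = 3 each; log2 fold change 0.32, edgeR adjusted p = 7.08e-07). EEFSEC, the elongation factor that brings selenocysteine to the ribosome, rose by 0.34 and TRIT1, which modifies tRNA, by 0.20 on the log2 scale (edgeR adjusted p = 0.0106 and 0.0448), and the libraries of the groups overlapped for TRIT1. SARS1, the seryl-tRNA synthetase, was at -0.08 (edgeR adjusted p = 0.0495). The number called in this list was 1 without RSL3 replicate 2 and 2 without control replicate 1, control replicate 2 or RSL3 replicate 1, against 4 with all libraries.

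Of 20 genes of selenoproteins other than peroxidases 17 were tested, 3 being upregulated, 3 downregulated and 11 neither, with a median log2 fold change of -0.01. The 6 of 17 called stand beside 25.6% over all genes tested. TXNRD1, the cytosolic thioredoxin reductase, was at 52921, 53891 and 50213 normalized counts in control and 78792, 78687 and 72117 in RSL3 libraries (log2 fold change 0.55, edgeR adjusted p = 1.41e-10). SELENOI, an enzyme of phospholipid synthesis, rose by 0.34 and SEPHS2, also in the list above, by 0.32 on the log2 scale (edgeR adjusted p = 2.91e-07 and 7.08e-07). SELENOH held 1630, 1614 and 1589 normalized counts in control and 943, 979 and 1008 in RSL3 libraries (log2 fold change -0.72, edgeR adjusted p = 6.06e-10). SELENON, a selenoprotein of the endoplasmic reticulum, was downregulated at -0.58 and SELENOT at -0.29 (edgeR adjusted p = 3.55e-10 and 1.42e-05).

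A further list of 10 genes held the peroxiredoxins and catalase, which remove peroxide without selenium, with the thioredoxins and the sulfiredoxin that serve the peroxiredoxins. In this list 2 genes were upregulated, 3 were downregulated and 5 did not pass the test, with a median log2 fold change of -0.04, beside 25.6% called over all genes tested. Neither of the upregulated genes was a peroxidase or catalase. SRXN1, the sulfiredoxin that repairs overoxidized peroxiredoxins, rose from 986 ± 49.8 to 1889 ± 128 normalized counts (SD, n = 3 each; log2 fold change 0.93, edgeR adjusted p = 1.04e-10), and TXN, thioredoxin, rose by 0.31 on the log2 scale (edgeR adjusted p = 1.32e-07). CAT, catalase, was at 1439, 1536 and 1500 normalized counts in control and 1081, 1001 and 1123 in RSL3 libraries (log2 fold change -0.48, edgeR adjusted p = 5.85e-07). The remaining downregulated genes were TXN2, the mitochondrial thioredoxin, at -0.16, and PRDX6, a peroxiredoxin that also acts on phospholipid hydroperoxides, at -0.13 (edgeR adjusted p = 0.00782 and 0.0111). Without control replicate 1, 3 genes of this list were called in place of 5.

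The last list held oxidative folding enzymes of the endoplasmic reticulum, where GPX8 lies, with the chaperone gene HSPA5 and the co-chaperone genes SIL1 and BAG2. Of its 17 genes, all tested, 9 were upregulated, 1 was downregulated and 7 did not pass the test, with a median log2 fold change of 0.14, against 12.9% upregulated and 12.7% downregulated over all genes tested. HSPA5, the chaperone BiP, rose from 427283 ± 11473 to 536802 ± 18230 normalized counts (SD, n = 3 each; log2 fold change 0.33, edgeR adjusted p = 3.7e-09). PDIA4, a protein disulfide isomerase, rose by 0.28 and QSOX1, a sulfhydryl oxidase, by 0.21 on the log2 scale (edgeR adjusted p = 5.28e-07 and 1.64e-05). VKORC1, the vitamin K epoxide reductase, was downregulated at -0.28 (edgeR adjusted p = 0.0103).

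**Figure D5:**
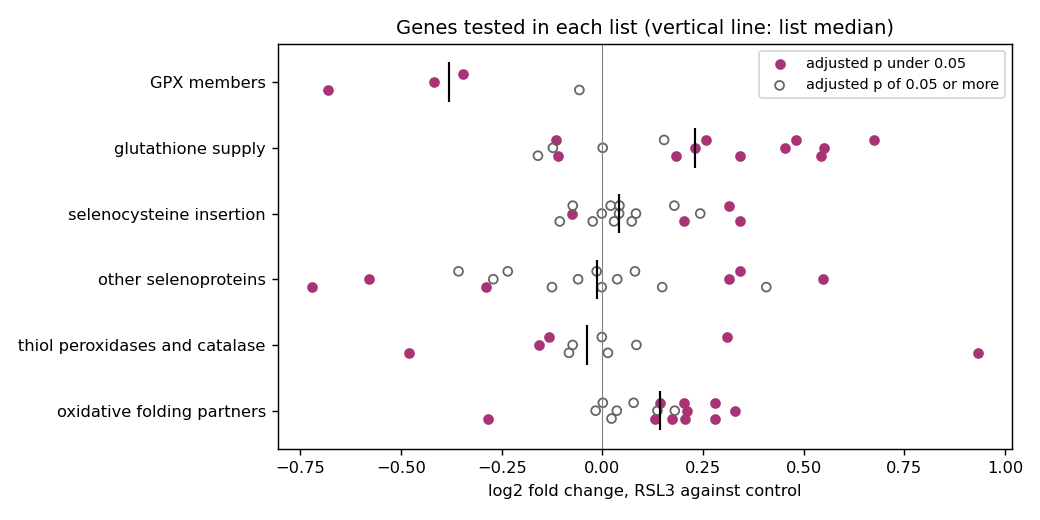
Log2 fold change (horizontal axis) of every tested gene of the family and of the 5 lists, filled where the edgeR adjusted p was under 0.05 and open otherwise, with a vertical line at each median. The median is -0.38 for the family members and lies between -0.04 and 0.23 for the lists.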

How the data were processed

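The authors trimmed the reads (Trimmomatic 0.36, Fastp), used HISAT2 for alignment to GRCh38.p4, and ran HTSeq 0.6.1p1 on exons per gene, ignoring strand. They deposited raw counts, without normalization, for 65988 identifiers per library. The annotation release is not given in the sources used here, and reads shared between genes cannot be reassigned from counts.

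Differential expression was tested in edgeR 4.0.16 under R 4.3.3 (filterByExpr at a minimum count of 10, TMM, quasi-likelihood F test, Benjamini-Hochberg adjustment, threshold 0.05, no covariates). Total counts ranged from 27813462 to 43306335. TPM was computed from GENCODE v44 exon lengths, available for 56434 identifiers with 99.7% of the counts. Positions and codons come from GENCODE v44 and promoters from RefSeq, where all 6 members matched. Ratios within libraries were compared by exact permutation over 20 splits. On simulated counts for this comparison (15905 genes), the test recovered 84.6% of 195 changed genes. The changes put in were all larger than those of GPX4 and GPX8, and every gene was given the same spread beyond counting error. This share therefore does not describe the power for changes of their size.

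The members and lists were chosen with earlier results of these data known. Genes named are the members, their paralogs, pseudogenes and neighbours, for each list the 3 called genes of smallest p per direction, and the 3 genes most like each member called. Alternatives included DESeq2 1.42.0 with surrogate variables from sva 3.50.0.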

Additional observations from a re-analysis of the deposited data

How the results depend on the processing

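The calls of GPX1, GPX4 and GPX8 held under every alternative run, namely other size factors, total counts, other filters, DESeq2 with 0, 1 or 2 surrogate variables, GC offsets, a threshold of 0.01 and each library left out. Over the settings that keep all libraries, log2 fold changes lay between -0.73 and -0.68 for GPX1, -0.46 and -0.41 for GPX4, -0.35 and -0.34 for GPX8, and -0.08 and -0.05 for GPX3. With 1 library left out they ranged from -0.70 to -0.65 for GPX1, -0.43 to -0.40 for GPX4, -0.37 to -0.31 for GPX8 and -0.17 to 0.03 for GPX3. The direction of GPX3 reversed without control replicate 2 (0.028, edgeR adjusted p = 0.934), and the cause was not tested. With the replicate number as a block, 4633 of all genes were called against 4123 without it, and no call of a member changed. To look for a pairing, the mean of its group was first taken from each gene's log2 CPM. The deviations left were then correlated over genes between control and RSL3 libraries. These correlations were 0.022, 0.027 and 0.074 for same-numbered libraries, and lay between -0.051 and 0.024 for differently numbered ones. They describe the deviations from the group means and not the likeness of whole expression profiles. Whether the numbers mark a pairing was not tested. DESeq2 with 2 surrogate variables called 2268 of all genes, 1 in the selenocysteine insertion list and 3 in the list of thiol peroxidases and catalase. The threshold of 0.01 called 2691 of all genes and 1 in the selenocysteine insertion list, by its construction. Leaving out a library gave 3081 to 3924 calls over all genes, 1 to 4 in the selenocysteine insertion list and 3 to 7 among thiol peroxidases and catalase. The list counts under alternatives were added after the data were seen. With the longest transcript as length, control levels were 696 TPM for GPX1, 7.77 for GPX3, 831 for GPX4 and 94.3 for GPX8. The other values, 248 of 263, were counted as kept. For fold changes this meant the same direction and side of the threshold, and for ratios the same direction only. The median of the members had to move by less than the mean standard error. Numbers of genes called were held to a looser rule that allowed moderate moves, as from 6 to 9 other selenoproteins with the replicate block. Depth limits GPX2 and GPX7, which without the filter had adjusted p of 0.987 and 0.64 in edgeR. With 3 libraries a group, the ratios cannot pass 0.05, and counts per gene show neither isoforms nor protein.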

Other observations

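RAB15, the gene next to GPX2 on chromosome 14, had 132, 96.0 and 118 normalized counts in control and 140.3, 198 and 161 in RSL3 libraries (log2 fold change 0.52, edgeR adjusted p = 0.0212), while GPX2 itself had 2 to 5 raw counts in every library. RAB15 encodes a small GTPase of endosomes.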
